A study of Mus musculus with 8 samples.

Results

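Contacts across the domain edge at 113.03 Mb of mouse chromosome 11 (build mm9) are described here, on the gene-rich side of Sox9 and outside the edited sequence. They comprise every pair of 10 kb bins with one bin in the left interval, 111410001 to 113020000, and the other in the right interval, 113040001 to 114880000. This gave 161 bins by 184 bins, or 29624 bin pairs, 17.3% of the 171405 pairs at least 20 kb apart on the map. The members were chosen by position alone, although the edge itself had been located in earlier results of the same maps. After 3 bins with almost no contacts in at least 1 library were left out, 29120 pairs remained, and 28800 member pairs fell into 288 full blocks of 100 by 100 kb.

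The maps are capture Hi-C, in which DNA ends ligated in fixed nuclei are enriched for one region and each read pair counts a contact. The tissue was fore- and hindlimb buds of E12.5 mouse embryos, pooled from 3 to 8 embryos per genotype, all homozygous CRISPR/Cas9 mutants on the G4 ES cell background. There were 8 genotypes with 1 library each, named by their labels BorKnockIn, ∆CTCF, ∆BorC1-4, ∆BorC1-2, ∆BorC1, InvC∆Bor, InvC and InvIntra. The labels do not spell out each edit beyond these names, by name a knock-in, 4 deletions (called the deletion libraries here) and 3 inversions, one of them combined with a deletion. Wild-type limb buds were not analysed here, so no value below is a difference from an unedited locus. With 1 library per genotype there is no replicate error and no test. Intervals cover counting error only, read pairs being taken as independent, and the spread over libraries at unedited positions is given as a description.

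Mammalian chromosomes fold into topologically associating domains, within which DNA meets itself more often than it meets DNA outside. Their borders commonly carry sites for CTCF, a DNA-binding protein that halts the loop-extruding cohesin complex, and contact across a border is reduced rather than lost. Sox9 encodes a transcription factor required for cartilage formation and lies in a long domain poor in genes. Next to it in the RefSeq gene order (GRCm38) comes Slc39a11, which encodes a zinc transporter of the ZIP family. Beyond it follow Sstr2 (a somatostatin receptor), Cog1 (a Golgi tethering subunit), Fam104a, D11Wsu47e, Cpsf4l, Cdc42ep4 (an effector of the small GTPase Cdc42), Sdk2 (a cell adhesion protein), Rpl38 (a protein of the large ribosomal subunit), Ttyh2 and Dnaic2. Positions of these genes in mm9 were not used here, so values on the right side are given by map position and not by gene.

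Depth ranged from 3056502 raw contacts in InvC∆Bor to 9045698 in ∆BorC1-4. Bin coverage was compared with that of the deletion libraries to see where libraries hold the same sequence. Right of 112.52 Mb it correlated at r between 0.977 and 0.998 in the 7 libraries other than BorKnockIn, across bins, which share capture probes and are not replicates. BorKnockIn reached 0.523 there as deposited and 0.918 once moved by 1 bin, and it is read 1 bin to the left below. After this move the match is still less close than in the other libraries, and reading BorKnockIn as deposited moved its difference from ∆BorC1 in insulation at the edge, given below, to 0.35 (0.18 when moved). From 111.41 to 112.49 Mb the coverage of BorKnockIn, InvC∆Bor, InvC and InvIntra correlated with the deletion libraries at only -0.01 to 0.04. In that stretch these 4 libraries, called the rearranged libraries here for short, do not match the deletion libraries by coverage at deposited coordinates. For BorKnockIn this was read without the 1 bin move, so an offset of the same sequence cannot be told apart from other sequence. Sequence-matched comparisons with the deletion libraries are restricted to the left blocks from 112.52 to 113.02 Mb, here called the Sox9 gene side. The Sox9 bin, 112640001 to 112650000, was placed from general knowledge of mm9.

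The edge was a strong border in all 8 libraries. The insulation score is log2 of the mean KR (Knight-Ruiz balanced) contact between the 200 kb to the left and the 200 kb to the right of a bin, over the mean of that quantity along the library, so a low score marks a border. At the edge it was -1.34 in BorKnockIn, -1.52 in ∆CTCF, -1.58 in ∆BorC1-4, -1.60 in ∆BorC1-2, -1.52 in ∆BorC1, -1.31 in InvC∆Bor, -1.25 in InvC and -1.36 in InvIntra. The lowest bin within 200 kb was the edge bin itself in every library, which in BorKnockIn is the bin 113020001 in deposited coordinates. The 4 deletion libraries were the lowest, and their scores did not overlap with those of the 4 rearranged libraries. How many unedited positions separate the same groups was not counted. These groups hold single libraries of different genotypes and not replicates.

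Insulation dropped steeply towards this bin from both sides. Within 500 kb the score climbed to between 0.35 and 0.60 on the left and to between 0.66 and 0.77 on the right, a rise over the edge of 1.77 to 2.02 and of 1.99 to 2.37. At 100 kb from the edge it had already recovered to between -0.28 and -0.08 on the left and to between -0.48 and -0.35 on the right.

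**Figure D1:**
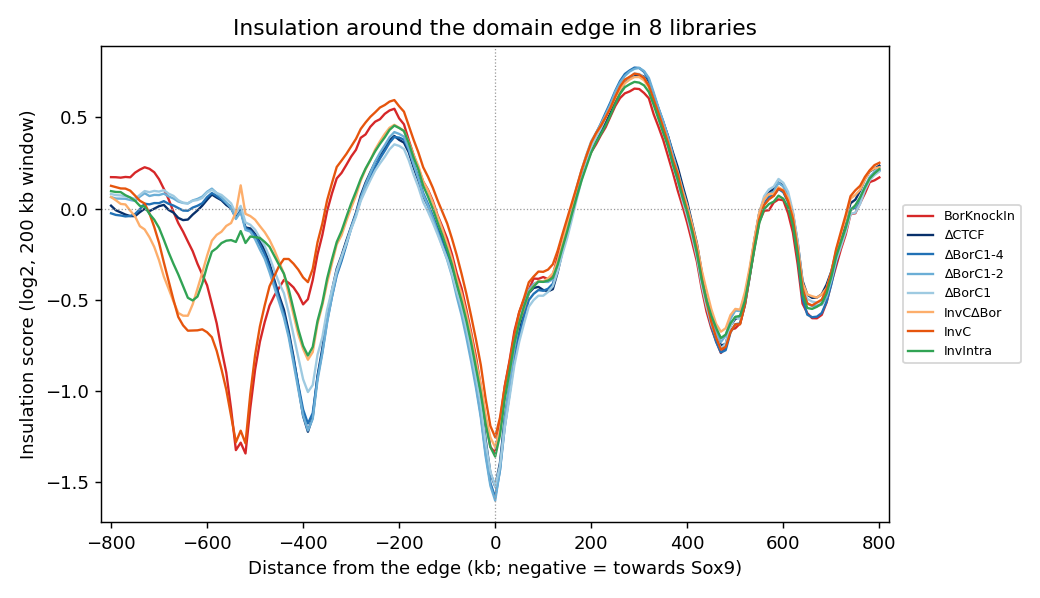
Insulation score (log2, 200 kb window, KR values) against distance from the edge in kb, 1 line per library, with BorKnockIn moved by 1 bin. All 8 lines reach a minimum at the edge, between -1.60 and -1.25. The lines of BorKnockIn and InvC have another minimum about 500 kb to the left. The lines of the other libraries have a further low 390 kb to the left, between -1.222 and -0.805, where BorKnockIn and InvC are less low.

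Set against the whole map, the edge was the lowest of 547 scored positions in 5 libraries, the 4 deletion libraries and InvC∆Bor. InvC had 2 lower positions and its minimum at 112.51 Mb (-1.29), BorKnockIn had 1, at 112.50 Mb in deposited coordinates (-1.34). InvIntra had 7 lower positions and its minimum, -1.87, at 111.38 Mb. In InvC and BorKnockIn the other low thus lay left of the Sox9 gene side, and it is called the relocated boundary here. In the unedited flanks the lowest positions were milder. The median over libraries was -0.98 at 110.39 Mb and -1.07 at 114.53 Mb.

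Libraries also differed more at the edge than at flank positions. The SD of the score over the 8 libraries was 0.14 at the edge. At 249 flank positions, at least 300 kb left of Kcnj2 or over 300 kb right of the edge, the median SD was 0.03 and the largest 0.08, so no position reached the value of the edge. These are different genotypes, so this SD is not an error of the score.

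How much contact passed the edge was counted as the cross-edge share, the raw contacts between both intervals as a percent of those plus the contacts within each interval. It was 10.99% in BorKnockIn, from 219681 crossing contacts, with an exact Clopper-Pearson 95% interval of 10.95 to 11.03. ∆CTCF had 9.26% (142597 contacts) and ∆BorC1-4 had 9.43% (304796). ∆BorC1-2 had 9.29% (200664) and ∆BorC1 had 9.57% (158782). InvC∆Bor had 10.7% (112443), InvC had 10.3% (183722) and InvIntra had 11.2% (269409), the highest of the 8. All 4 deletion libraries lay below all 4 rearranged ones. How many other positions of the map separate these groups by their share was not counted. The widest interval, that of InvC∆Bor, ran from 10.6 to 10.7.

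The same separation held on the Sox9 gene side alone, where the sequence is matched. Other positions were not counted for it either. There the share was 9.97% in BorKnockIn, 7.71% in ∆CTCF, 7.78% in ∆BorC1-4, 7.66% in ∆BorC1-2, 7.84% in ∆BorC1, 9.02% in InvC∆Bor, 9.79% in InvC and 9.44% in InvIntra. Counted within 400 kb of the edge, the top library stood at 1.27 times the bottom one. At 178 flank positions the median of this ratio was 1.12 and its maximum 1.26. By the share, the spread between libraries at the edge was therefore barely wider than the widest in the flanks, unlike the insulation score.

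In the same 400 kb windows, by the share of raw contacts, no position more than 50 kb away had a lower share than the edge in 6 libraries. In InvC 2 positions were lower, with 13.7% at the edge against 13.5% at 110.19 Mb, the lowest of them. InvIntra had 7, with 14.2% at the edge against 11.9% at 111.38 Mb. The median over all 504 positions ran from 26.4% in ∆CTCF to 28.8% in InvIntra. In windows of 200 kb the border at 114.53 Mb had the lowest share of the map in 5 libraries, and the edge was then below all distant positions in 1 library only, ∆BorC1-2. By KR contact over distance expectation the count ran the other way. With 400 kb on each side no distant position was lower than the edge in 2 libraries, ∆BorC1-4 and ∆BorC1-2, and up to 43 were lower in InvC, while with 200 kb this held in 7 libraries, all but InvIntra.

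Crossing the edge was next compared with staying on one side at the same distance. The mean KR contact of crossing pairs was divided by that of pairs within both sides, distance by distance. At 200 to 500 kb this ratio was 0.482 in BorKnockIn, 0.412 in ∆CTCF, 0.395 in ∆BorC1-4, 0.388 in ∆BorC1-2, 0.404 in ∆BorC1, 0.469 in InvC∆Bor, 0.512 in InvC and 0.455 in InvIntra. The 4 deletion libraries again lay below the other 4. How many other positions separate these groups by this ratio was not counted. The pairs within the left interval include the stretch not matched by coverage. The score, the shares and this ratio draw on the same maps, so they are not separate observations.

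Against pairs of both sides together, the deficit was deepest at the shortest distances. The median ratio over libraries was 0.328 at 50 to 100 kb (range 0.274 to 0.361), 0.354 at 100 to 200 kb, 0.433 at 200 to 500 kb, 0.484 at 500 to 1000 kb and 0.498 at 1000 to 1600 kb (0.432 to 0.581). At 200 to 500 kb the median was 0.441 against pairs within the left interval alone and 0.426 against pairs within the right interval alone. Beyond 1000 kb these parted, with a median of 0.299 against pairs within the left interval and 0.679 against pairs within the right interval. Against the left side the median at 50 to 100 kb was 0.366, so there the deficit was deepest at the longest range. The longest range was lower in every library except BorKnockIn (0.378 against 0.367 at 50 to 100 kb) and InvC (0.500 against 0.408). Pairs within the left interval, and crossing pairs beyond 500 kb, take in sequence left of 112.52 Mb at deposited coordinates. There the rearranged libraries do not match the deletion libraries by coverage, so sequence and true distance may differ between libraries.

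The 288 blocks show where across the edge contacts lay. Each block is given as the mean of KR contact over the library's own mean at that distance, so 1 is the average of the map. The median over libraries was below 0.5 in 151 blocks and at or above 1 in 9, with a median block of 0.497. How many of all block pairs of the map passed these limits was not counted. These counts take in all 288 blocks, also those left of 112.52 Mb, where the libraries are not matched by coverage. In all, 274 blocks held at least 100 contacts in every library. The lowest of these joined the last 100 kb left of the edge, 112.92 to 113.02 Mb, to the first 100 kb right of it, 113.04 to 113.14 Mb. It stood at 0.360 in BorKnockIn, 0.327 in ∆CTCF, 0.315 in ∆BorC1-4, 0.309 in ∆BorC1-2, 0.343 in ∆BorC1, 0.378 in InvC∆Bor, 0.400 in InvC and 0.367 in InvIntra. This block nevertheless held the most contacts of all in number, 2812 to 7185 per library, because of its short distance. Among the other 4 lowest, the last 100 kb also met 113.14 to 113.24 Mb at a median of 0.363 and 113.84 to 113.94 Mb at 0.366. The far block 114.64 to 114.74 Mb met 112.62 to 112.72 Mb, which holds Sox9, at 0.355, and it met 112.32 to 112.42 Mb at 0.356.

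Relative to expectation, the highest blocks were the longest-range ones next to the edge on the right. At such distances the expectation itself takes in pairs that cross this edge. A value above 1 thus need not be an excess over contact within a domain. The block from 113.04 to 113.14 Mb met 111.42 to 111.52 Mb, at the far end of the left interval, at a median of 1.31. That block stood at 1.65 in BorKnockIn, 1.22 in ∆CTCF, 1.29 in ∆BorC1-4, 1.22 in ∆BorC1-2, 1.40 in ∆BorC1, 1.32 in InvC∆Bor, 0.975 in InvC and 1.79 in InvIntra, on 865 to 2360 contacts. By coverage these coordinates do not match between the 4 rearranged libraries and the deletion libraries, so neither its median nor its spread is one of matched sequence. The same right block met the next 3 left blocks at medians of 1.24, 1.20 and 1.10. The remaining block of the 5 highest joined 111.42 to 111.52 Mb with 113.44 to 113.54 Mb, at 1.06. Of the 9 blocks at or above 1, 6 had the first right block and 3 had the block 113.44 to 113.54 Mb.

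**Figure D2:**
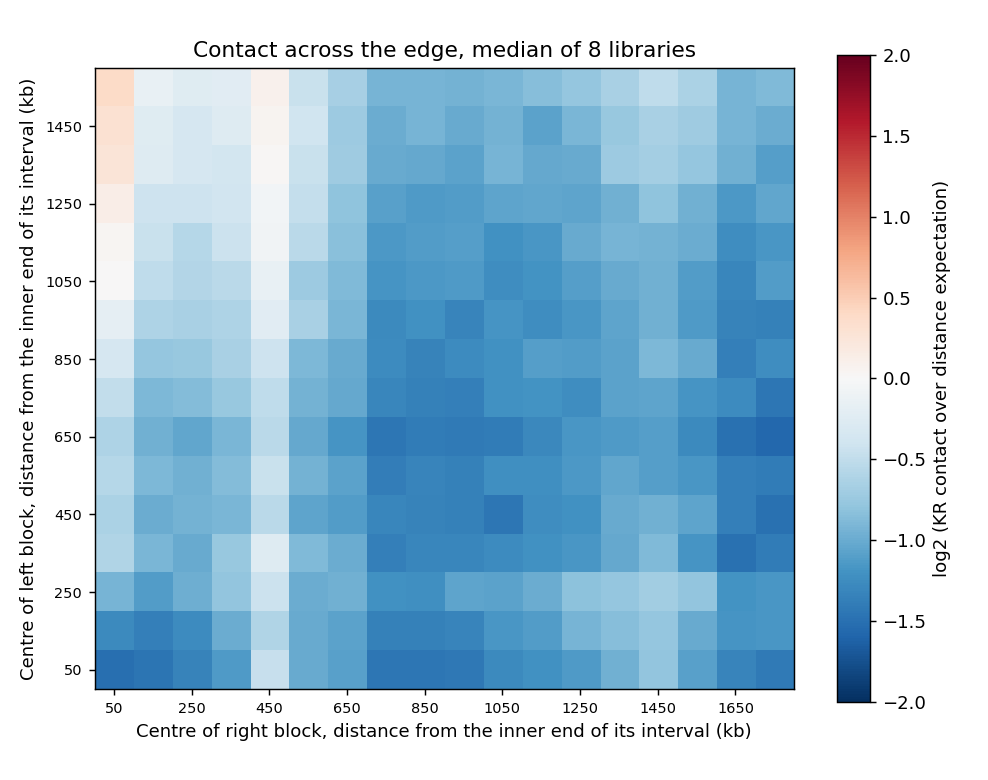
Contact across the edge for 16 left by 18 right blocks of 100 kb, as log2 of the median over 8 libraries of KR contact over distance expectation (colour). Axes give each block's distance in kb from the inner end of its interval; the column at 450 kb on the right is paler than both its neighbours at every left block, and the corner next to the edge is the lowest of the blocks with at least 100 contacts in every library.

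On the right side, contact with the whole left interval was high beside the edge and had a separate peak inside the gene-rich interval. The left interval includes sequence left of 112.52 Mb, where the rearranged libraries do not match the deletion libraries by coverage. Levels of right bins and blocks against all of it are thus not of matched sequence. The first right bin, 113.04 Mb, stood at 1.12 in BorKnockIn, 1.15 in ∆CTCF, 1.03 in ∆BorC1-4, 1.00 in ∆BorC1-2, 1.17 in ∆BorC1, 1.05 in InvC∆Bor, 0.925 in InvC and 1.21 in InvIntra. By 300 kb it had dropped to between 0.57 and 0.81. It then rose to a maximum at 113.48, 113.49 or 113.50 Mb, depending on the library.

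This peak was found in all 8 libraries, and in BorKnockIn its bin, at 1.17, stood above the first right bin. The block around it, 113.44 to 113.54 Mb, stood at 1.06 in BorKnockIn, 0.824 in ∆CTCF, 0.781 in ∆BorC1-4, 0.8003 in ∆BorC1-2, 0.848 in ∆BorC1, 0.809 in InvC∆Bor, 0.781 in InvC and 0.991 in InvIntra, on 10083 to 28499 contacts. In BorKnockIn, ∆BorC1-2, InvC and InvIntra this block stood above the first right block, and in the other 4 libraries below it. It exceeded the mean of its neighbours 1.31-fold (InvIntra) to 1.38-fold (BorKnockIn). In each library all 16 left blocks met it more than they met either neighbour, relative to distance. For the last 100 kb left of the edge the excess was 1.43-fold (InvIntra) to 1.57-fold (∆CTCF). With this matched sequence alone the block stood at 0.734 in InvIntra and at 0.667 to 0.722 in the deletion libraries. It stood higher in InvC∆Bor (0.753), InvC (0.805) and BorKnockIn (0.817). An insulation minimum lay at the same place, at 113.50 Mb, with a median score of -0.76 and a range of -0.79 to -0.67. The block was picked as the highest right block beyond the first after the values were seen, so its excess is a description.

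Past this site contact was lower. The right block 113.54 to 113.64 Mb had a median of 0.583 over libraries, and the blocks from 113.74 to 114.04 Mb had 0.421 to 0.426. A broad shoulder reached 0.545 at 114.44 to 114.54 Mb, next to the border at 114.53 Mb. Of the crossing contacts, 16.8% (BorKnockIn) to 19.0% (∆BorC1) fell in the first 100 kb right of the edge and 55.0% (InvC∆Bor) to 57.9% (∆BorC1) in the first 500 kb. Beyond 1000 kb lay 19.5% (∆CTCF) to 21.6% (∆BorC1-4). These proportions differed little between genotypes although the shares themselves did.

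**Figure D3:**
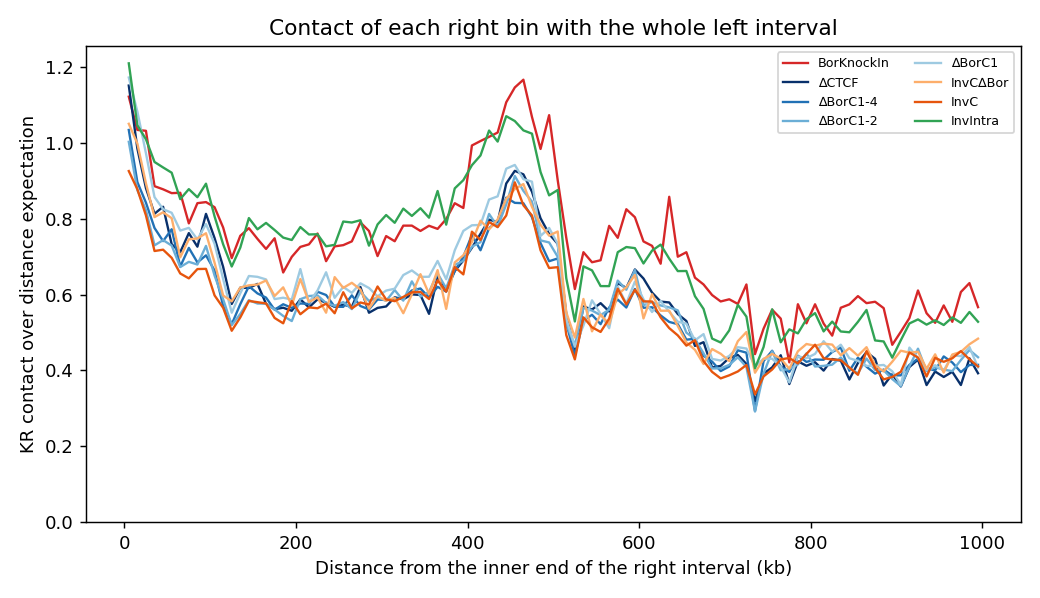
KR contact over distance expectation of each 10 kb bin of the right interval with the whole left interval, against distance in kb from the inner end of the right interval, 1 line per library. Every line starts high, between 0.93 and 1.21, and has a peak 440 to 460 kb from the inner end. BorKnockIn and InvIntra run above the other libraries over most of the range. The left interval includes sequence that is not matched by coverage between the rearranged and the deletion libraries.

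On the left side, the far part of the Sox9 gene side is where libraries parted most among blocks of matched sequence. The right interval as a whole met the last 100 kb, 112.92 to 113.02 Mb, at 0.531 in BorKnockIn, 0.420 in ∆CTCF, 0.414 in ∆BorC1-4, 0.413 in ∆BorC1-2, 0.401 in ∆BorC1, 0.480 in InvC∆Bor, 0.507 in InvC and 0.473 in InvIntra. At 400 to 500 kb from the edge, in the segment 112.52 to 112.62 Mb, the values were 0.820 in BorKnockIn, 0.410 in ∆CTCF, 0.421 in ∆BorC1-4, 0.408 in ∆BorC1-2, 0.423 in ∆BorC1, 0.499 in InvC∆Bor, 0.737 in InvC and 0.548 in InvIntra. BorKnockIn and InvC, the 2 libraries with an insulation minimum at 112.50 or 112.51 Mb, just left of this segment, stood apart from the other 6. The highest library exceeded the lowest 2.01-fold here, against 1.33-fold in the last 100 kb. Further left the fold reached 1.71, in 111.42 to 111.52 Mb, where the sequence is not matched.

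**Figure D4:**
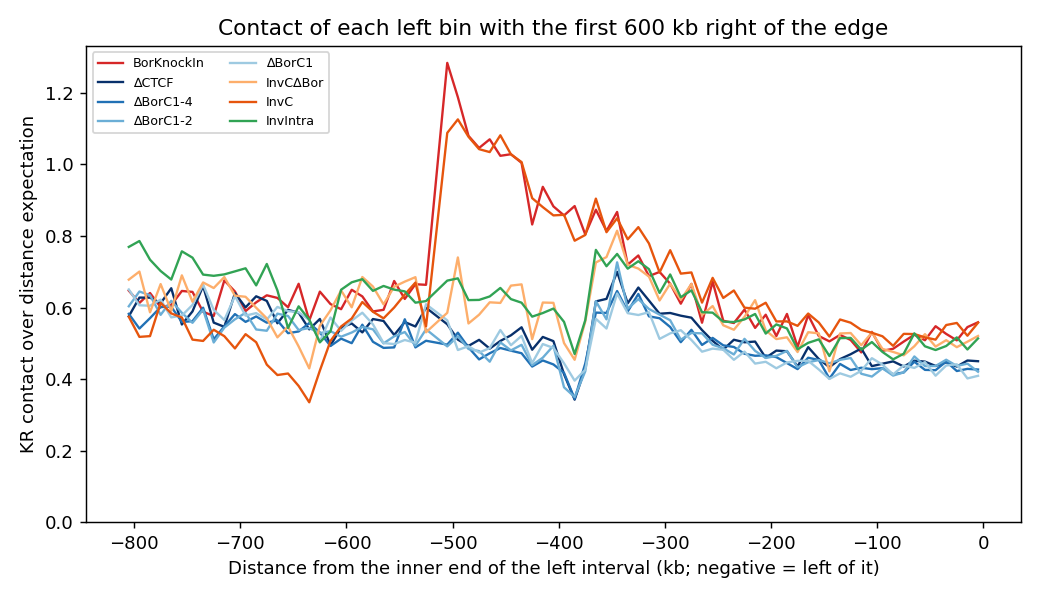
KR contact over distance expectation of each 10 kb bin of the left interval with the first 600 kb of the right interval, against distance in kb from the inner end of the left interval, 1 line per library. The lines of BorKnockIn and InvC step up at about 500 kb and slope down towards the edge, where the libraries lie closer together. Bins further left are not matched by coverage between the 4 rearranged libraries and the deletion libraries.

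Of all contacts of this segment beyond neighbouring bins, 17.5% crossed the edge in BorKnockIn (interval 17.3 to 17.7), against 8.48% in ∆CTCF and 8.51% in ∆BorC1-4. It was 8.44% in ∆BorC1-2 and 8.74% in ∆BorC1, 11.2% in InvC∆Bor, 18.02% in InvC (17.8 to 18.2) and 11.8% in InvIntra. Its contacts with the left interval up to 112.49 Mb were fewer in BorKnockIn and InvC, with 32.3% in BorKnockIn, 51.5% to 53.2% in the deletion libraries, 42.7% in InvC∆Bor, 24.0% in InvC and 46.7% in InvIntra. Contacts with the rest of the Sox9 gene side were more frequent in both. They were 30.8% in BorKnockIn, 15.0% to 16.6% in the deletion libraries, 19.0% in InvC∆Bor, 33.9% in InvC and 19.8% in InvIntra. The insulation low at the Sox9 bin, shallower in BorKnockIn and InvC, lies between this segment and most of the rest of the gene side. Its part in these counts was not tested.

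Relative to the gene side, BorKnockIn and InvC no longer stood apart from the other libraries. There were 0.569 crossing contacts per contact with the rest of the gene side in BorKnockIn (log-normal interval 0.559 to 0.578), 0.565 in ∆CTCF, 0.561 in ∆BorC1-4, 0.551 in ∆BorC1-2, 0.526 in ∆BorC1, 0.588 in InvC∆Bor, 0.532 in InvC (0.523 to 0.541) and 0.598 in InvIntra. BorKnockIn and InvC lay within the range of the other 6. InvC fell among the deletion libraries, while BorKnockIn, InvC∆Bor and InvIntra lay above all 4 of them, BorKnockIn by a margin within the counting interval of ∆CTCF (0.550 to 0.579). Crossing and gene-side contacts of the segment were therefore both more frequent in these 2 libraries. KR balancing gives each bin the same total, so in those values fewer contacts on one side appear as more on the other by construction; the shares above are raw counts and have the same property.

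**Figure D5:**
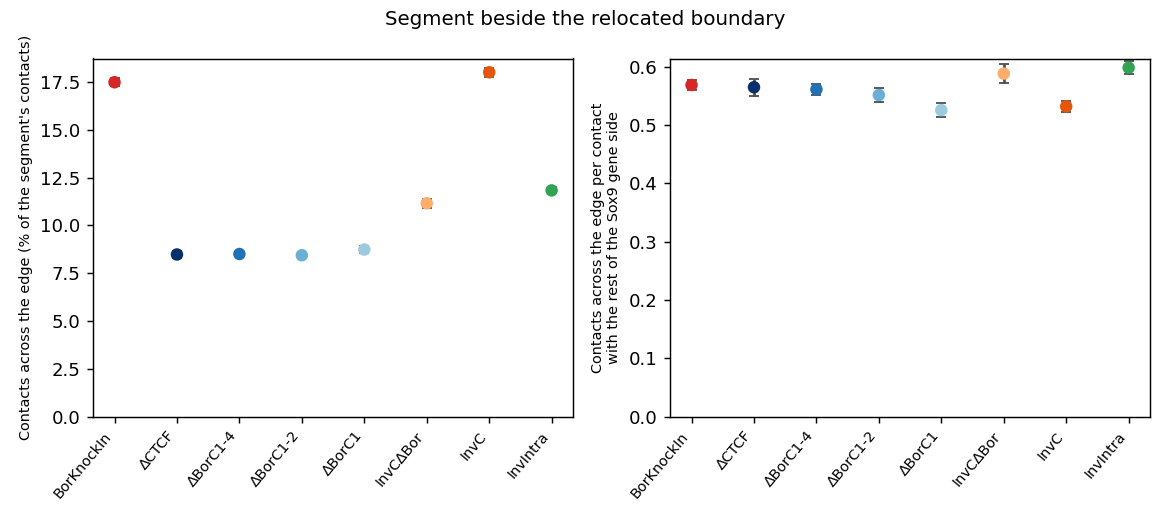
Contacts across the edge of the segment 112.52 to 112.62 Mb in each library, as a percent of the segment's raw contacts (left) and per contact with the rest of the Sox9 gene side (right); points are single libraries and bars 95% counting intervals. BorKnockIn and InvC are highest on the left, at 17.5% and 18.02%, and within the range of the others on the right.

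The 30 kb window at Sox9 was read in the same way. Of its contacts, 12.55% crossed the edge in BorKnockIn (5870 contacts). The deletion libraries had less, with 6.02% in ∆CTCF (2650), 6.60% in ∆BorC1-4 (5950), 6.33% in ∆BorC1-2 (3877) and 6.46% in ∆BorC1 (3036). InvC∆Bor had 8.75% (2503), InvC had 12.6% (5569) and InvIntra had 9.40% (5621). With the block 113.44 to 113.54 Mb the window stood at 1.23 times the expected contact in BorKnockIn, 0.614 to 0.682 in the deletion libraries, 0.780 in InvC∆Bor, 1.17 in InvC and 0.842 in InvIntra. Per contact with its own gene side the Sox9 window crossed 0.384 times in BorKnockIn, 0.264 to 0.295 times in the deletion libraries, 0.348 in InvC∆Bor, 0.359 in InvC and 0.352 in InvIntra. Here BorKnockIn was the highest of the 8 and the deletion libraries the lowest. How many other windows order the libraries in this way was not counted.

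In all, 6 comparisons between genotypes, including the median of the deletion libraries against InvIntra, were then made. The labels do not state that the members of each pair differ by a single edit. A difference in insulation was called where it exceeded the largest difference of the same pair at the flank positions, and a block where raw contacts over expectation differed at least 1.5-fold with at least 100 contacts in each library.

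The deletion libraries had a tighter edge than InvIntra. Their median score of -1.55, against -1.36 in InvIntra, gave a difference of -0.19, beyond the largest flank difference of 0.095. On the Sox9 gene side 89 of 90 blocks could be measured. None was 1.5-fold higher in the deletion libraries (5.09% of all 1552 block pairs of the map) and 4 were lower (6.31% of all), a share below the background. At the lower fold threshold tried, 46 of the 89 were lower (51.7%, against 19.8% of all block pairs) and none higher. All 89 lay below 1, with a median ratio of 0.795 against 0.940 for all block pairs. The median of all block pairs was thus below 1 as well, and their share below 1 was not counted. The ratios ran from 0.644, for 112.72 to 112.82 Mb with 114.14 to 114.24 Mb, to 0.933, for 112.92 to 113.02 Mb with 113.64 to 113.74 Mb. The other lowest blocks joined 114.34 to 114.44 Mb to the Sox9 block, at 0.647, and to the segment, at 0.654. InvIntra is a single library with inverted sequence next to the gene side, and genotype and library cannot be told apart.

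BorKnockIn had a weaker edge than ∆BorC1 by the KR score, at -1.34 against -1.52. The difference of 0.18 exceeded the largest flank difference of 0.150, but with raw counts it was 0.12, below that setting's flank maximum of 0.143. Its crossing blocks were higher in 88 of the 89 measured on the gene side. The median of all block pairs, 1.05, was above 1 as well, and their share above 1 was not counted. In BorKnockIn 36 of 89 blocks were at least 1.5-fold higher (5.75% of all 1564 block pairs) and none lower (3.64% of all), with a median ratio of 1.44 against 1.05 for all block pairs. Of the 36, 17 belonged to the segment 112.52 to 112.62 Mb and 13 to the Sox9 block, 112.62 to 112.72 Mb. With 113.64 to 113.74 Mb the segment had 1296 contacts in BorKnockIn and 477 in ∆BorC1, a ratio of 2.48 over expectation (log-normal interval 2.23 to 2.75). The ratio was 2.35 with 114.44 to 114.54 Mb and 2.31 with 113.54 to 113.64 Mb. The lowest ratios were those with the first right block, 0.985 from the last 100 kb left of the edge, 1.06 from 112.82 to 112.92 Mb and 1.09 from 112.72 to 112.82 Mb. BorKnockIn and ∆BorC1 thus differed least right at the edge and most at the far end of the gene side.

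InvC∆Bor and InvC were compared over the whole left interval, since their coverage from 111.41 to 112.49 Mb correlated at r = 0.977 across 109 bins. The scores were -1.31 in InvC∆Bor and -1.25 in InvC, a difference of -0.05 against a flank maximum of 0.106. In a 400 kb window the difference was -0.13, beyond that window's flank maximum of 0.084. Of 274 measured blocks, 1 was at least 1.5-fold higher in InvC∆Bor (2.03% of all 1524 block pairs) and 9 were lower (2.03% of all), with a median ratio of 1.03. All 9 lower blocks belonged to the segment 112.52 to 112.62 Mb. The lowest joined it to 113.34 to 113.44 Mb, with 658 contacts in InvC∆Bor and 2003 in InvC, a ratio of 0.521 over expectation (0.477 to 0.569). With the site 113.44 to 113.54 Mb it was 0.568, and with 114.04 to 114.14 Mb 0.588. The highest ratio, 1.54, joined 111.62 to 111.72 Mb to 114.44 to 114.54 Mb on only 133 contacts in InvC∆Bor and 124 in InvC.

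Between deletion libraries the differences at the edge stayed below the largest flank difference of each pair. ∆BorC1-2 minus ∆BorC1 was -0.08 (flank maximum 0.091), ∆BorC1-4 minus ∆BorC1-2 was 0.02 (0.084) and ∆CTCF minus ∆BorC1-4 was 0.06 (0.168). No crossing block differed 1.5-fold in either direction in any of these 3 pairs, of 278, 286 and 277 measured. Among all block pairs of the map 0% were called in either direction in the first pair, 0% in the second, and 0% higher and 0.0643% lower in the third. Crossing blocks ran from 0.727 to 1.20 for ∆BorC1-2 over ∆BorC1, from 0.804 to 1.247 for ∆BorC1-4 over ∆BorC1-2 and from 0.701 to 1.17 for ∆CTCF over ∆BorC1-4. The extremes of each pair lay on 129 to 949 contacts per library. With 1 library per genotype, smaller differences cannot be told apart from variation between libraries.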

How the data were processed

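For each of 8 libraries, the raw count of contacts in every pair of 10 kb bins and the KR balanced signal were used as the authors deposited them. Bowtie2 2.2.6, Juicer and the build mm9 are named per the submitters' processing notes, and read filters were not given in the sources used here. Members, lists and contrasts were chosen with earlier results of these data known, including the position of the edge.

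Bins under 0.05 of a library's median coverage in any library were left out. Expected contact was each library's mean per distance over the map. BorKnockIn was moved by 1 bin. Regions named are the 5 highest and 5 lowest crossing blocks by median, the 3 highest and 3 lowest per contrast, and every anchor that a result turns on; the site and the segment were added after the values were seen. Shares have exact Clopper-Pearson and ratios log-normal 95% intervals. Depth is 3056502 to 9045698 contacts. No test was possible with 1 library per genotype. The matched-distance ratio and the block calls were tested on simulated maps of distance decay with a known loss across the edge and no other domains. Tools were matplotlib 3.10.9 for plots, scipy 1.17.1 for intervals, and pandas 2.3.3 with numpy 2.4.6 in Python 3.11.15. Alternatives were KR or raw values, thinning, windows, intervals, thresholds and bins left out.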

Additional observations from a re-analysis of the deposited data

How the results depend on the processing

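No paired analysis was possible because each genotype had 1 library and the labels carry no replicate numbers. Of 100 alternative values, 47 stayed within the tolerance set for their result, 52 moved beyond it and 1 turned. The tolerance was a counting interval for the share and the segment. It was an SD over libraries or flank positions for insulation and the site. For the matched-distance ratio it was a fixed amount, and for counts of blocks or libraries a 1.5-fold change. Alternatives for the site, the segment and the KR ranks were chosen after seeing the data, and causes were not tested. The median cross-edge share of 9.95% became 9.601% (KR), 15.0% (pairs at least 100 kb apart), 12.4% (400 kb on each side) and 8.43% (sequence-matched left interval). The median insulation of -1.44 became -1.29 (raw), -1.30 (thinned), -1.58 (100 kb window) and -1.15 (400 kb window). The matched-distance ratio of 0.433 became 0.471 (raw) and 0.468 (thinned). By raw share the edge was below all distant positions in 6 libraries with 400 kb and in 1 with 200 kb on each side, but by KR over expectation in 2 with 400 kb and in 7 with 200 kb. The deletion median minus InvIntra, -0.19, became -0.23 (raw), -0.25 (400 kb window) and -0.25 (thinned), beyond the flank maximum in each of its 6 alternatives. InvC∆Bor minus InvC, -0.05, became -0.10 (raw), -0.11 (thinned) and -0.13 (400 kb window), the last beyond its flank maximum of 0.084. BorKnockIn minus ∆BorC1, 0.18, became 0.27 (400 kb window) and 0.35 (deposited coordinates), and fell short of the flank maximum at 0.12 (raw), 0.13 (100 kb window) and 0.11 (thinned). ∆BorC1-2 minus ∆BorC1, -0.08, became -0.13 (100 kb window), -0.0161 (400 kb window) and -0.0168 (thinned), and ∆CTCF minus ∆BorC1-4, 0.06, became 0.0092 (thinned). Under a lower fold threshold the called blocks numbered 46 of 89 for the deletion median over InvIntra, all lower (4 before; 19.8% of all block pairs lower), and 71 of 89 for BorKnockIn over ∆BorC1, all higher (36 before; 19.2% of all higher). For InvC∆Bor over InvC they numbered 66 of 274 (10 before), and the balance turned, with 40 higher (11.2% of all) and 26 lower (6.82% of all), against 1 higher and 9 lower. They were 7 of 278, all lower, for ∆BorC1-2 over ∆BorC1 (1.60% of all lower) and 14 of 277, all lower, for ∆CTCF over ∆BorC1-4 (4.31% of all lower), 0 before in both. In 50 kb blocks more blocks were measured, and 8 of 202 were called for the deletion median over InvIntra, all lower (5.74% of all lower). For InvC∆Bor over InvC 34 of 377 were called, 7 higher and 27 lower (4.52% and 2.85% of all). For BorKnockIn over ∆BorC1 it was 70 of 231, all higher, or 30.3% against 40.4% in 100 kb blocks (5.60% of all higher). It was 1 of 537, higher, for ∆BorC1-2 over ∆BorC1 (0.0264% of all higher). For ∆BorC1-4 over ∆BorC1-2 it was 1 of 679, lower (0.0707% of all lower). For the deletion median over InvIntra the main count became 0 of 89 with KR values (3.48% of all lower). It became 1 of 70 with flank expectation (2.58% of all lower) and 1 of 51 with at least 400 contacts (4.51%), both lower. For BorKnockIn over ∆BorC1 it became 19 of 70 with flank expectation, all higher, or 27.1% against 6.52% of all. With at least 400 contacts it became 14 of 59, all higher, or 23.7% against 4.12% of all. For ∆BorC1-2 over ∆BorC1 it became 2 of 136 with flank expectation, both higher (0.272% of all higher). The site's excess of 1.34 was 1.24 in 50 kb blocks. For the segment, InvC∆Bor over InvC, 0.677, became 0.607 (raw), 0.641 (flank expectation) and 0.605 (thinned), and turned to 1.11 per contact with the gene side. BorKnockIn over ∆BorC1, 1.94, became 2.03 (raw), 1.85 (flank expectation), 1.88 (deposited coordinates), 2.06 (thinned) and 1.08 per contact with the gene side. Depth limits the far blocks, of which 14 of 288 had under 100 contacts in at least 1 library, with 53 in the smallest.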
